A study of Homo sapiens with 6 samples.

Results

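The 31 genes described here encode the proteins of the nuclear pore complex. They were taken as the rows for these gene symbols among the 58174 genes measured, and no expression value was used to pick rows. The list of symbols itself was drawn up with earlier results of these data known. All 31 had enough signal to be tested. Nuclear pores are large ring-shaped channels through the nuclear envelope, built from many copies of several kinds of proteins, the nucleoporins. An outer ring made of the Y complex and an inner ring form the scaffold. Nucleoporins rich in phenylalanine-glycine repeats fill the channel and form the transport barrier, filaments reach into the cytoplasm, and a basket hangs into the nucleus. Proteins and RNA bound to importins or exportins pass through this barrier, with the direction set by the small GTPase Ran. The pores break down and reassemble at each division.

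The study sought genes that depend on JMJD1C in LN-229, an established human glioblastoma cell line. JMJD1C belongs to the histone demethylases with a JmjC domain. There were 3 control-NC libraries (control 1 to 3) and 3 libraries labelled sh-JMJD1C (sh-JMJD1C 1 to 3), read here as cells given a short hairpin RNA against JMJD1C. The sequence of the hairpin, the time after its delivery and the use of a second hairpin are not given in the labels. All 6 libraries were made from total RNA that was enriched for nuclei and freed of ribosomal RNA, so transcripts still inside the nucleus weigh more than in whole-cell RNA. Nothing in the labels says that the libraries came from separate cultures, so the p-values measure the spread between these libraries, which may be technical. In such bulk RNA, fewer cells and less RNA per cell cannot be told apart.

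JMJD1C (chr10:63167221-63521850, hg38, minus strand), the targeted gene, stood at 168.5, 93.1 and 170.6 scaled RPM (reads-per-million) in control 1 to 3 and at 43.1, 10.97 and 28.1 in sh-JMJD1C 1 to 3. Scaled RPM are whole reads recovered from the deposited FPKM (fragments scaled to gene length and library total) and divided by a median-ratio size factor, on a scale common to the libraries. Every sh-JMJD1C library lay below every control. In scaled FPKM the means were 3.5 ± 1.10 (SD, n = 3) and 0.645 ± 0.388 (SD, n = 3), 18.4% of the control, with p = 0.1 in a two-sided exact permutation test, the smallest value that 3 against 3 libraries can give. The fit of FPKM with limma gave a log2 fold change of -1.82 (SE 0.41, Benjamini-Hochberg adjusted p = 0.118), and limma-voom on reads gave -2.49 (SE 0.51, adjusted p = 0.0253). Removing length and GC trends from the reads, as described further on, brought it to -1.20 (limma-voom adjusted p = 0.0574).

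The libraries were shallow, with 544442, 2004255 and 2960454 reads in control 1 to 3 and between 1660561 and 1919675 in the sh-JMJD1C libraries. A gene with 0 reads may have had up to 3, a floor of 5.51 RPM before scaling in control 1 and of 1.01 to 1.81 in the other libraries. Of 8 markers listed for a mesenchymal glioblastoma line, VIM (vimentin) lay between 638 and 908 scaled RPM, ANXA2 between 330.5 and 1339, EGFR between 268.3 and 1162, CD44 between 163 and 467 and ANXA1 between 30.9 and 107.8. FN1, SOX9 and NES stayed at or below 23.7, 18.2 and 11.4 scaled RPM. EGFR was lower and ANXA2 higher in every sh-JMJD1C library than in any control, and neither passed the test on reads. Among lineage and other cell type markers, AQP4, OLIG2, CD3E, PECAM1 and ALB had 0 reads in all 6 libraries, PTPRC, GFAP and EPCAM stayed at or below 3.25 scaled RPM, and MBP lay between 7.02 and 44.8. The RNA classes differed between libraries: 7SL RNA genes took 15.7% and 18.5% of the reads in sh-JMJD1C 2 and 3 against 0.378% to 1.77% in the other 4, and the nuclear RNA MALAT1 took 1.25% to 2.4% in the controls against 0.0915% to 0.292% in the sh-JMJD1C libraries. Mitochondrial RNA took 12.6% of the reads in sh-JMJD1C 1, against 1.33% and 1.7% in sh-JMJD1C 2 and 3 and 2.93% to 8.7% in the controls. The part of these differences in the results below was not tested.

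As a group, the nuclear pore genes did not move in one direction. NUP93, a scaffold protein of the inner ring, rose and TPR, the long coiled-coil protein of the nuclear basket, fell in the fit of reads, and no other of the 31 passed its threshold. Summed over all 31 genes, the level was 3185 ± 81 scaled RPM (SD, n = 3) in the controls and 3157 ± 647 (SD, n = 3) in the sh-JMJD1C libraries, 99.1% of the control. That difference was smaller than the spread between libraries. The 3 basket genes together came to 36.7% of the control mean and the 5 inner ring genes together to 169%, without overlap between groups in either sum, and the other 4 parts overlapped. Of all single genes tested on reads, 17.3% were higher and 17.2% lower without overlap. No such share was computed for sums of genes. Taken singly, NUP153 of the basket and NUP205, NUP155 and NUP35 of the inner ring overlapped between groups.

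Whether a gene counted as changed depended on the fit. With limma on log2(scaled FPKM + 0.5), a scale that understates the change of low genes, 0 of the 31 passed an adjusted p of 0.05 in either direction, where 0.0598% of 18383 genes tested were called higher and 0.125% lower. The smallest adjusted p of a member in that fit was 0.0958, for TPR, and 9 members had an unadjusted p under 0.05, a level that 19.9% of all genes tested reached. With limma-voom on reads, 1 member was called higher and 1 lower, against 3.71% and 1.81% of 11876 genes. The balance over all genes turned with the scaling: 441 were called higher and 215 lower here, and 311 higher and 884 lower with the libraries scaled to their totals, where the median log2 fold change of all genes was -0.52. Of the 31 genes, 4 had all sh-JMJD1C libraries above all controls and 5 had all below, where 17.3% of all genes were higher and 17.2% lower without overlap. Set against these shares, the counts of the 31 genes were close to the background. The median log2 fold change of the members was -0.02 in the FPKM fit and -0.04 on reads, and the medians over all genes tested were -0.16 and -0.08.

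**Figure D1:**
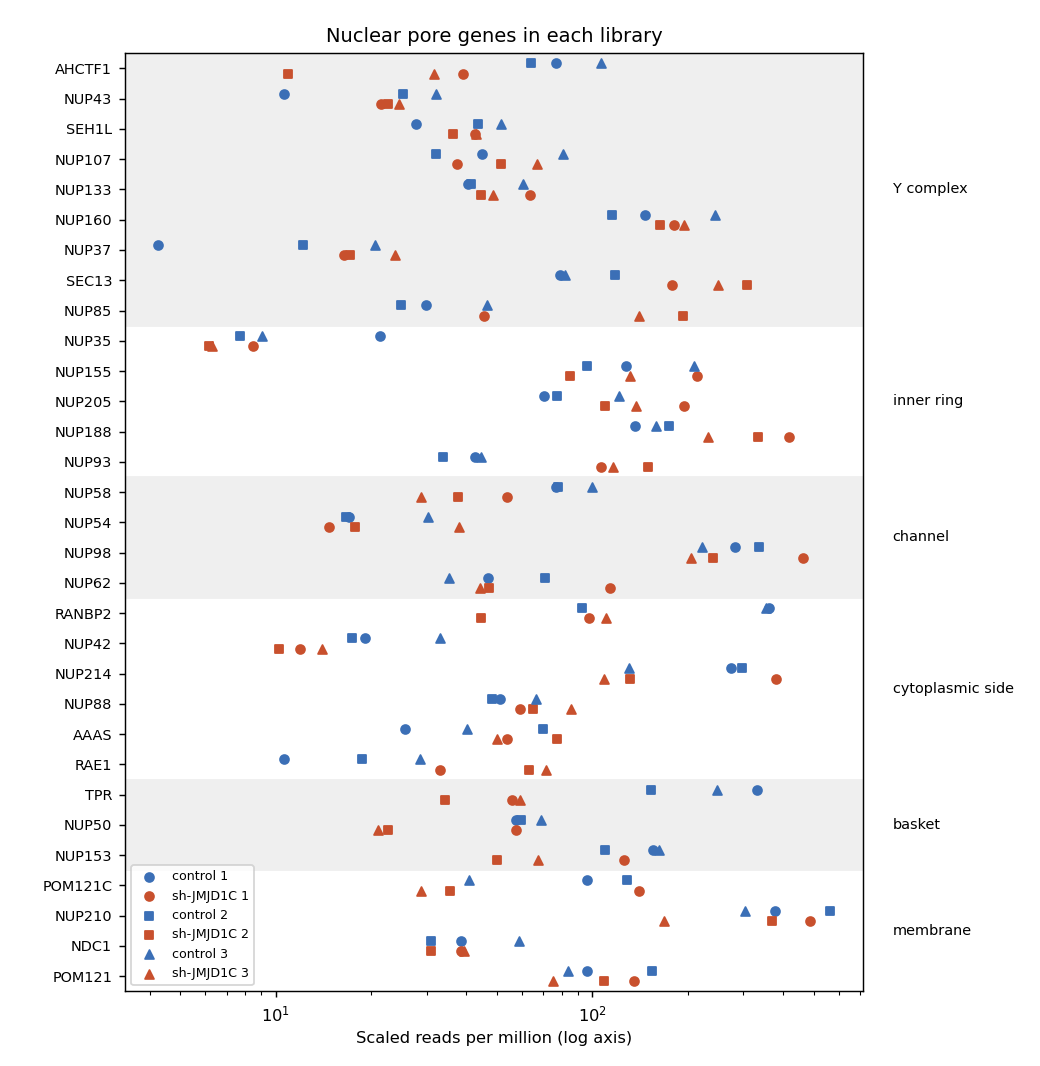
Level of each of the 31 nuclear pore genes in each library, in scaled RPM on a log axis, with genes grouped by their place in the pore; blue symbols are controls, red symbols are sh-JMJD1C, and the symbol shape gives the replicate number. The red symbols of NUP93, NUP188, SEC13 and RAE1 lie to the right of all blue ones, those of TPR, AHCTF1, NUP58, NUP50 and NUP42 lie to the left, and the other 22 genes overlap.

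The inner ring spans the pore and anchors the channel proteins. Its NUP93 was the one member called higher on reads, while its other genes did not pass there, and NUP188 had a larger adjusted p than SEC13, NUP85 and RAE1 of other parts. NUP93 (chr16:56730105-56850286, plus strand), which links the inner ring to the channel, stood at 42.7, 33.8 and 44.5 scaled RPM in the controls and at 106.7, 150.1 and 115.9 in the sh-JMJD1C libraries. The lowest sh-JMJD1C value was far above the highest control value, and the exact (Clopper-Pearson) 95% counting intervals of the unscaled levels, 22.4 to 56.7, 33 to 51.3 and 52.9 to 71.1 RPM in the controls, stayed below 84.8, the lowest bound in the sh-JMJD1C libraries. These intervals cover counting error only. The mean went from 40.3 ± 5.74 to 124 ± 22.9 scaled RPM (SD, n = 3 each), 3.08-fold, with a log2 fold change of 1.62 (SE 0.36, limma-voom adjusted p = 0.0326) on reads and 1.31 (SE 0.30, limma adjusted p = 0.121) on FPKM. On reads NUP93 was no longer called by limma-voom without control 1, control 2, control 3, sh-JMJD1C 2 or sh-JMJD1C 3, or with the libraries scaled to their totals, and it stayed called without sh-JMJD1C 1 (adjusted p = 0.00845) and without both libraries numbered 1 (adjusted p = 0.0439).

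NUP188 (chr9:128947699-129007096, plus strand), a large scaffold protein that binds NUP93, was measured at 136.5, 174.8 and 159.3 scaled RPM in the controls and at 417.3, 333.2 and 231.8 in the sh-JMJD1C libraries. Its groups did not overlap, and sh-JMJD1C 1 was the highest library. The mean was 2.09-fold the control mean, with a log2 fold change of 1.02 (SE 0.37) that did not pass the test (limma-voom adjusted p = 0.0971). NUP205 (chr7:135557919-135648757, plus strand), the paralog of NUP188, gave 70.4, 77.3 and 121.7 scaled RPM against 194.2, 109.7 and 137.6, and sh-JMJD1C 2 lay below control 3. NUP155 (chr5:37288137-37371181, minus strand), which ties the ring to the pore membrane, gave 128.0, 96.4 and 209.4 against 214.0, 85.0 and 132.0, with full overlap. Neither passed the test on reads, with log2 fold changes of 0.68 (limma-voom adjusted p = 0.244) for NUP205 and -0.04 (limma-voom adjusted p = 0.962) for NUP155. NUP35, the smallest inner ring protein, was the least covered member, with 99 reads over the 6 libraries, and its log2 fold change of -0.39 was smaller than its SE of 0.54. NUP205 and NUP155 are shown by library besides the rule for naming, because both were called once length and GC trends were removed.

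Of the 3 basket genes, TPR fell on reads. NUP50 and NUP153 did not pass on FPKM, on reads, or on reads with the length trend or both trends removed. With the replicate number as a block on reads, limma-voom called both lower. NUP50 came to -1.04 (adjusted p = 0.0392) and NUP153 to -0.89 (adjusted p = 0.0338) in that fit. With length and GC trends removed none of the 3 passed, and NUP50 (-0.28) and NUP153 (-0.10) were within their SE. TPR (chr1:186311652-186375693, minus strand) forms the basket filaments and takes part in mRNA export control. It stood at 330.5, 153.3 and 246.8 scaled RPM in the controls and at 55.6, 34.3 and 59.0 in the sh-JMJD1C libraries. All 3 sh-JMJD1C values lay below the lowest control, and their mean of 49.6 ± 13.4 was 20.4% of the control mean of 244 ± 88.7 (SD, n = 3 each). Its log2 fold change was -2.25 (SE 0.42, limma-voom adjusted p = 0.0197) on reads and -2.10 (SE 0.40, limma adjusted p = 0.0958) on FPKM. The call of TPR by limma-voom was lost without control 1, control 3 or sh-JMJD1C 2, and held without control 2, sh-JMJD1C 1 or sh-JMJD1C 3 and without both libraries numbered 1 (adjusted p = 0.0365).

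NUP50, a basket protein that helps release import cargo, gave 57.6, 59.4 and 68.9 scaled RPM in the controls against 57.3, 22.6 and 21.1 in sh-JMJD1C 1 to 3. Its groups just did not overlap, since sh-JMJD1C 1 lay level with control 1. NUP153, which holds the basket on the nuclear ring, gave 155.7, 109.4 and 162.3 against 125.5, 50.05 and 67.4, and sh-JMJD1C 1 reached into the control range. The log2 fold changes on reads were -1.02 for NUP50 (SE 0.45, limma-voom adjusted p = 0.147) and -0.88 for NUP153 (SE 0.42, limma-voom adjusted p = 0.173). For both genes sh-JMJD1C 1 was the library nearest to the controls. Without sh-JMJD1C 1 both were called lower by limma-voom on reads, NUP50 at -1.49 (adjusted p = 0.023) and NUP153 at -1.24 (adjusted p = 0.039).

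In the Y complex, the outer scaffold, SEC13 was higher and AHCTF1 lower without overlap, and 6 of the other 7 genes had a difference smaller than its error. SEC13 (chr3:10293131-10321178, minus strand), a propeller protein shared with the COPII coat of secretory vesicles, gave 78.9, 117.9 and 81.9 scaled RPM against 178.8, 307.1 and 249.3. The lowest sh-JMJD1C library was above the highest control, and the log2 fold change was 1.37 (SE 0.38, limma-voom adjusted p = 0.0535). AHCTF1 (chr1:246839098-246931967, minus strand), also called ELYS, recruits the Y complex to chromatin as pores reassemble after mitosis. It gave 76.8, 63.8 and 106.3 scaled RPM against 39.2, 10.97 and 31.6, all below the controls, with a log2 fold change of -1.73 (SE 0.50, limma-voom adjusted p = 0.0576). NUP85, named here for its spread after its values were seen, gave 29.9, 24.8 and 46.7 against 45.4, 193.3 and 140.5. Without both libraries numbered 1 it was called by limma-voom (log2 fold change 2.24, adjusted p = 0.0285), and with all 6 libraries it was not (1.66, SE 0.55, adjusted p = 0.0772). NUP107, NUP133, NUP160, NUP43, SEH1L and NUP37 had log2 fold changes on reads between -0.10 and 0.41, each smaller than its SE.

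Among the cytoplasmic proteins, RAE1 and RANBP2 pointed opposite ways. RAE1, an mRNA export factor that binds NUP98, gave 10.7, 18.7 and 28.6 scaled RPM in control 1 to 3 against 32.9, 63.1 and 71.6 in the sh-JMJD1C libraries. These did not overlap, but control 1 rested on 5 reads, and the log2 fold change of 1.32 (SE 0.47) did not pass (limma-voom adjusted p = 0.0934). NUP42, a docking site for the helicase step of mRNA export, gave 19.2, 17.5 and 33.0 against 11.9, 10.3 and 14.1, lower without overlap, with a log2 fold change of -0.95 (SE 0.46, limma-voom adjusted p = 0.183). RANBP2, the giant SUMO ligase of the cytoplasmic filaments, shown after its values were seen, gave 362.5, 92.7 and 352.4 against 97.6, 44.6 and 110.3. Control 2 fell among the sh-JMJD1C libraries, and the log2 fold change of -1.52 (SE 0.56) did not pass (limma-voom adjusted p = 0.0996); without control 2 it did (-2.19, adjusted p = 0.0276). NUP214, NUP88 and AAAS lay between -0.33 and 0.39, and NUP214 ranged from 108.9 to 381.5 scaled RPM within the sh-JMJD1C group.

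Of the 4 channel genes, which carry the repeats of the transport barrier, NUP58 was lower without overlap. It gave 76.8, 77.7 and 99.7 scaled RPM in control 1 to 3 against 53.9, 37.7 and 28.8 in the sh-JMJD1C libraries, with a log2 fold change of -1.11 (SE 0.39, limma-voom adjusted p = 0.088). Its partners NUP62 and NUP54 and the gene for NUP98, which also encodes NUP96 of the Y complex, had log2 fold changes of 0.35, -0.04 and 0.03, each under its SE. The 4 membrane genes, NDC1, POM121, POM121C and NUP210, lay between -0.55 and -0.07, also each under its SE, and control and sh-JMJD1C libraries overlapped for all 4. Over all 31 genes, 16 had a log2 fold change under its SE in the FPKM fit, and no direction is given for those.

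**Figure D2:**
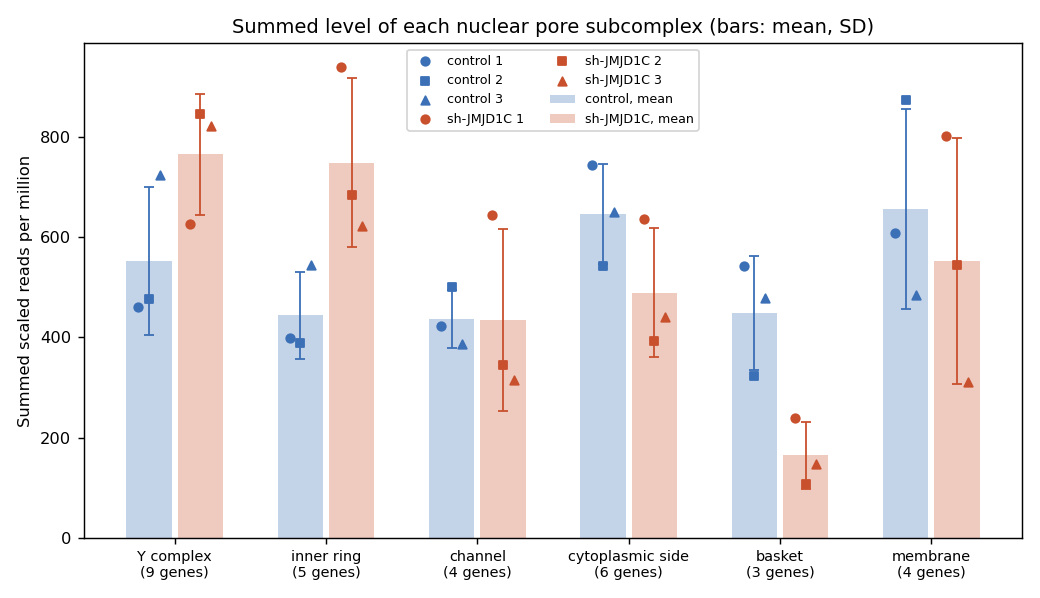
Summed level of the genes in each part of the pore, in scaled RPM, per library (symbols) with the group mean (bars, from 0) and SD (error bars, n = 3). The sh-JMJD1C libraries lie above all controls in the inner ring (623.6 to 940.7 against 389.9 to 543.9) and below all controls in the basket (106.9 to 238.4 against 322.0 to 543.8), and the other 4 parts overlap. Of all single genes tested on reads, 17.3% lay above and 17.2% below all controls.

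The sums by part are given without a test, since the parts were looked at with gene results in view, and a sum can follow a single gene. The basket summed to 543.8, 322.0 and 478.0 scaled RPM in the controls and to 238.4, 106.9 and 147.5 in the sh-JMJD1C libraries. The inner ring summed to 398.8, 389.9 and 543.9 against 940.7, 684.2 and 623.6. TPR had the most reads of the 3 basket genes in control 1, 2 and 3, and NUP153 had the most in sh-JMJD1C 1, 2 and 3. NUP188 had the most reads of the inner ring genes in each sh-JMJD1C library. The Y complex reached 138% of its control mean, the channel 99.5%, the membrane genes 84.3% and the cytoplasmic side 75.8%, and each of these 4 overlapped between groups.

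Ratios of 2 genes within a library do not depend on how the libraries are scaled, but they keep the length and GC trends described further on. The reads of NUP93 over those of TPR came to 0.129, 0.220 and 0.180 in control 1 to 3 and to 1.92, 4.38 and 1.96 in sh-JMJD1C 1 to 3. TPR thus had several times the reads of NUP93 in each control, and fewer reads than NUP93 in each sh-JMJD1C library. NUP188 over RANBP2 gave 0.377, 1.89 and 0.452 against 4.27, 7.48 and 2.10, where control 2 came close to sh-JMJD1C 3. SEC13 over NUP58 gave 1.03, 1.52 and 0.821 against 3.32, 8.15 and 8.66. These pairs were chosen after the fold changes were seen, so the ratios are descriptions.

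Levels of different genes were compared per kilobase of the longest annotated transcript. Among the controls, NUP210, a membrane glycoprotein, was the highest of the 31 genes, with a mean of 57.5 scaled RPM per kilobase, followed by NUP98 at 39.8 and SEC13 at 39.1. The lowest were NUP35 at 4.49, NUP93 at 4.88 and NUP37 at 5.20 scaled RPM per kilobase. In the sh-JMJD1C libraries SEC13 led with 103 scaled RPM per kilobase, followed by NUP188 at 57.6 and NUP85 at 56.6. NUP93 came to 15.1 there, and TPR went from 25.1 in the controls to 5.11. Neighbours in these orders were not tested against each other, and single genes spread widely, such as NUP210 with 302.5 to 561.5 scaled RPM among the controls.

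The fold changes followed transcript length over the whole transcriptome, and the pore genes are long. Their longest transcripts had a median of 5376 bases against 3540 for all genes tested, and a median GC content of 43.7% against 48.6%. With all genes split by length into 5 groups of equal size, from short to long, the median log2 fold change on reads went 0.80, 0.34, -0.09, -0.34 and -0.75. Across genes, which are not independent replicates and share the libraries, Pearson's r between log2 fold change and log2 length was -0.44 over 11856 genes and -0.47 over the 31 members, and r with GC content was 0.50 and 0.41. TPR, AHCTF1 and RANBP2, the members with the 3 lowest fold changes, also have the 3 longest transcripts, of 9708, 8892 and 11711 bases. NUP93, at 8257 bases, stood 1.62 above zero where genes of its length were mostly below it.

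**Figure D3:**
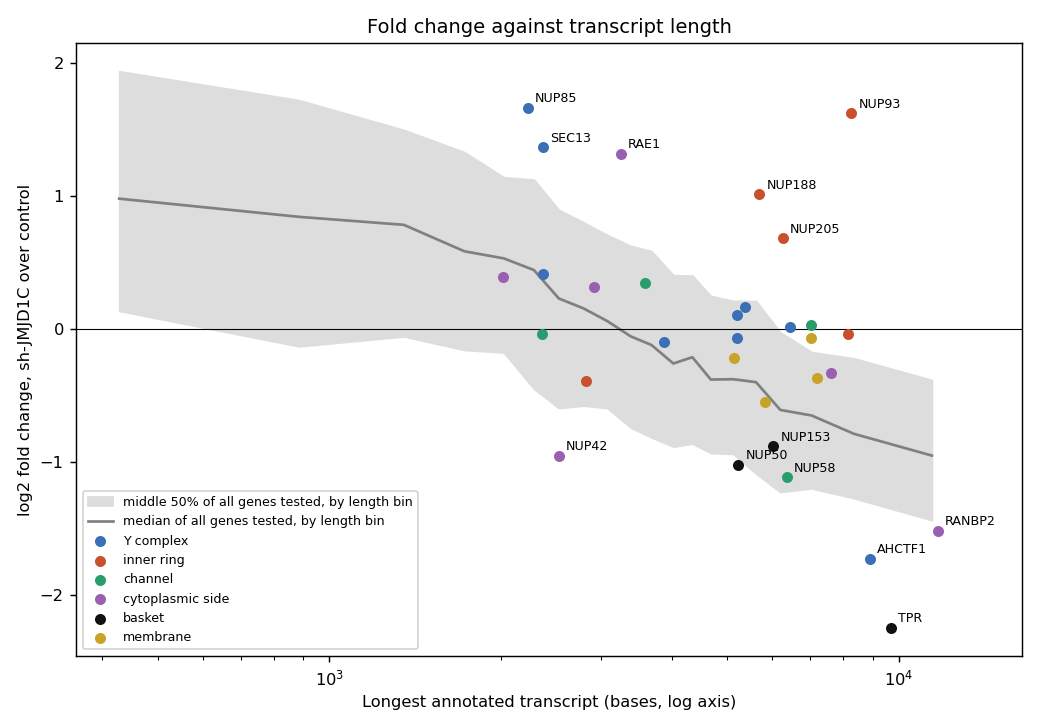
Log2 fold change on reads (sh-JMJD1C over control) against the longest annotated transcript in bases (log axis), with the nuclear pore genes coloured by part of the pore, the median of all genes tested as a line and their middle 50% as a grey band. TPR, AHCTF1 and RANBP2 lie at the long end, below the band or just past its end. NUP42 and, by little, NUP50 also lie below the band, at shorter lengths. NUP93, NUP188 and NUP205 lie above the band, as do NUP85, SEC13 and RAE1 and, by less, NUP155, NUP107, NUP98 and POM121.

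With the trend over length removed from each library, fold changes of the inner ring genes other than NUP35 were larger and those of the basket nearer to 0. In that fit 2 members were called higher, NUP93 (log2 fold change 2.35, SE 0.38, limma-voom adjusted p = 0.0141) and NUP188 (1.47, SE 0.35, adjusted p = 0.0451), and none lower, where 2.34% of all genes were called higher and 1.08% lower. TPR moved to -1.45 (SE 0.37) and missed the threshold (limma-voom adjusted p = 0.0518), and RANBP2 and AHCTF1 moved to -0.64 and -0.97. NUP42, with a shorter transcript of 2529 bases, moved the other way, from -0.95 to -1.21 (SE 0.45, limma-voom adjusted p = 0.125). NUP93 was still called in this fit without control 2, sh-JMJD1C 1 or sh-JMJD1C 3 and without both libraries numbered 1 (limma-voom adjusted p = 0.0287), and was not called without control 1, control 3 or sh-JMJD1C 2. NUP188 was called without control 2 or without sh-JMJD1C 1, and under no other left-out library. The members' median was 0.27 and that of all genes -0.02.

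Once GC content was treated like length, 4 of the 5 inner ring genes were called higher and no other member in either direction, against 3.65% of all genes higher and 3.1% lower. These were NUP93 (log2 fold change 2.44, SE 0.35, limma-voom adjusted p = 0.0108), NUP205 (1.5, SE 0.27, adjusted p = 0.0217), NUP188 (1.20, SE 0.27, adjusted p = 0.0347) and NUP155 (1.13, SE 0.27, adjusted p = 0.0407). NUP155 stood at -0.04 before these trends were taken out, so its call rests on their removal. TPR came to -0.90 (SE 0.30, limma-voom adjusted p = 0.0933), RANBP2 to -0.06 and NUP58 to 0.11. Removing such a trend also takes out any change that truly varies with length or GC content. GC was removed after length, and this brought back a weak length trend in the opposite direction. Pearson's r with log2 length over all genes was 0.12 in this fit, against 0.006 with length alone removed. Over the members it was 0.002 against -0.04.

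**Figure D4:**
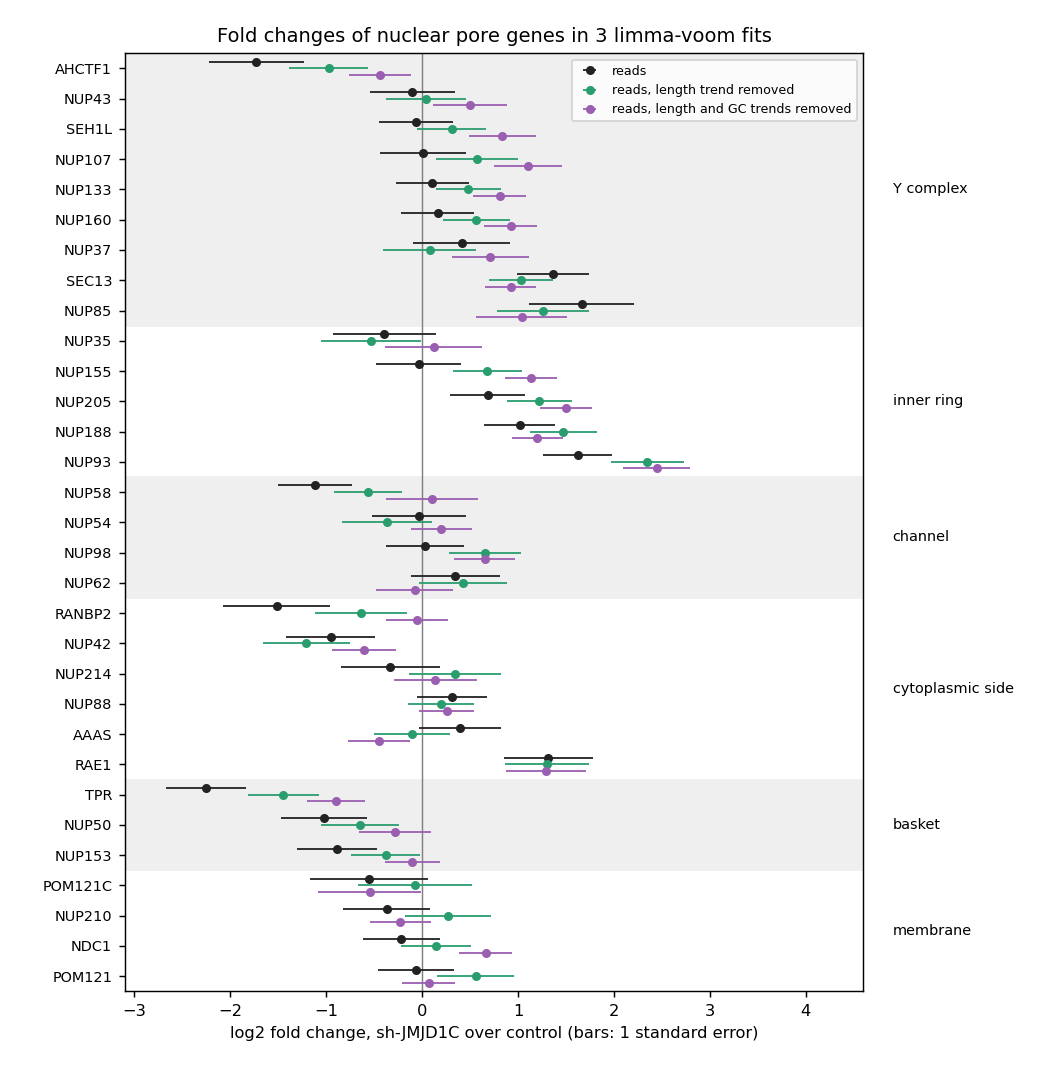
Log2 fold change (sh-JMJD1C over control) with 1 standard error for each of the 31 genes in the limma-voom fit of reads (black), with the length trend removed (green) and with the length and GC trends removed (purple). NUP93 stays above zero in all 3, at 1.62, 2.35 and 2.44, and TPR moves from -2.25 to -0.90.

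Sequences shared with other genes bear on some of these values, because reads from near-identical copies or from overlapping genes may have been split or dropped in counting. Both strands were searched, so a gene that overlaps on the opposite strand counts as sharing sequence. Of the 50-base stretches in the longest transcript, 65.7% of those of POM121 and 63.3% of those of POM121C occur in transcripts of other genes, which include each other, so neither value can be taken as that of 1 gene. The same share was 48.4% for AHCTF1, almost all of it in the pseudogene AHCTF1P1, and 27.1% for RANBP2, in the RGPD family. It was 31.4% for NUP62, 21.98% for NUP42, 16.4% for NUP88 and 15.7% for NUP50, so the values of these 4 genes are uncertain as well. All of the share of NUP88 lies in RPAIN, and the gene that shares most with NUP62 is ATF5. Both overlap on the opposite strand and are not copies. Each RGPD gene examined had at most 23 reads in any library. The shares were 0.414% for NUP93, 4.40% for NUP188 and 6.09% for TPR, and 0 for NUP205, NUP58, NUP85, RAE1 and SEC13. Whether strand was used in counting is not given in the sources used here. TPR shares 6.27% of its exon bases with other genes, chiefly PRG4 on the opposite strand, and NUP188 shares 4.29% with SH3GLB2 on the opposite strand and AL672142.1. The largest such shares were 21.1% for NUP62, 18.9% for POM121, 18.7% for NUP88 and 12.96% for NUP42.

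The promoters of 29 of the 31 genes were found in RefSeq (GRCh38.p14), and AHCTF1 and NUP43 had no entry in that table. Shown are NUP93, NUP188 and NUP205, which had the highest fold changes of the inner ring, then TPR, the lowest of all 31, and NUP214 as an example with the ETS motif. Each sequence is read 5′ to 3′ on the strand of the gene, within 250 bases upstream of its start, with stretches that annotated exons cover left out. Capitals mark matches, on either strand, to the letters searched.
NUP93 promoter, chr16:56729969-56730104, plus strand: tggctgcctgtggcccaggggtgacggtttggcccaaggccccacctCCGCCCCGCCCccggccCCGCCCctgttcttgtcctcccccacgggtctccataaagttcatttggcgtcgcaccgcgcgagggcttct
NUP188 promoter, chr9:128947620-128947698, plus strand: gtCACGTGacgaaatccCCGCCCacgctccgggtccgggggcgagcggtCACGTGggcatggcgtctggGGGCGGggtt
NUP205 promoter, chr7:135557667-135557916, plus strand: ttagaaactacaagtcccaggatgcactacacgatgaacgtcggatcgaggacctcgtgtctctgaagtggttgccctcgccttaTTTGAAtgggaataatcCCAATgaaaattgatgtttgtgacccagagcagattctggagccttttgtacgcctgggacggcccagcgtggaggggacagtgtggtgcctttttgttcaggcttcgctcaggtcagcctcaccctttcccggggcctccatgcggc
TPR promoter, chr1:186375326-186375503, minus strand: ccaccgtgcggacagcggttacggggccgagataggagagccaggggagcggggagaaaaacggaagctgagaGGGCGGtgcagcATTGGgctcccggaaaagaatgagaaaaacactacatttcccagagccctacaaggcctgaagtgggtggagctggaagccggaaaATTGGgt
NUP214 promoter, chr9:131125336-131125560, plus strand: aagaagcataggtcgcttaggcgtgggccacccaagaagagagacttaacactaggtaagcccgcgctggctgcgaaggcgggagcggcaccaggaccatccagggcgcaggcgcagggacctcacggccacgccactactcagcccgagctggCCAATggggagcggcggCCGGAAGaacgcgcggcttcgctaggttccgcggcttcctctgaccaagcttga

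Letters searched, each with its reverse complement, were GGGCGG (the SP/KLF or GC box), CCGGAAG (ETS), CGCATGCG (NRF1), CCAAT (the CCAAT box), then TATAAA (the core promoter box), TTTGAA (CHR, a cell cycle element) and CACGTG (E-box). The pore promoters were mostly rich in CpG, with a median of 22 CpG in 250 bases, equal to that of the promoters of genes tested on reads, and none of the 29 held TATAAA, against 4.98% of 8775 promoters of tested genes. CCGGAAG was in 13 of 29 (44.8%), among them NUP214, SEC13, NUP58, NUP50 and POM121, against 17.2% of the promoters of tested genes and 8.52% of all 35116 promoters. GGGCGG was in 12 of 29 (41.4%), including NUP93, NUP188 and TPR, against 68.9% of the promoters of tested genes. CCAAT was in 10 (34.5% against 35.8%), TTTGAA in 6 (20.7% against 8.24%), CGCATGCG in 3 (10.3% against 3.56%) and CACGTG in 2 (6.90% against 9.24%). NUP93 and TPR, which moved in opposite directions, both held GGGCGG and CCAAT within their windows and neither held CCGGAAG; the CCAAT of NUP93 lies in the stretch not shown. A match is a run of letters and not a measured binding site.

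Genes that work with the pore were read from 5 lists. The counts below stand against 3.71% of all genes called higher and 1.81% lower on reads, and no list was tested against these shares. Of 10 genes of the Ran cycle, 2 rose on reads and none fell, and the list's median log2 fold change was 0.92 against -0.08 for all genes. RCC1, the exchange factor that loads Ran with GTP on chromatin, stood at 89.6, 78.9 and 70.6 scaled RPM in the controls and at 147.6, 425.0 and 265.5 in the sh-JMJD1C libraries, a log2 fold change of 1.70 (SE 0.43, limma-voom adjusted p = 0.0435) that was not called with the length trend removed (adjusted p = 0.05002). RANGAP1, the GTPase activator that sits on RANBP2, gave 46.9, 69.1 and 67.4 against 134.5, 260.5 and 152.4, a log2 fold change of 1.48 (SE 0.39, limma-voom adjusted p = 0.049). Both were higher in every sh-JMJD1C library than in any control. None of the 10 was called in the FPKM fit.

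Among 7 exportins 1 fell and none rose. XPOT, which carries tRNA out of the nucleus, gave 477.7, 278.5 and 586.2 scaled RPM against 118.1, 54.2 and 111.0, with every sh-JMJD1C library below every control. Its log2 fold change was -2.25 (SE 0.44, limma-voom adjusted p = 0.0216), and -1.69 with the length trend removed (adjusted p = 0.0375). Of 18 importins, 15 were tested on reads and none was called, with a median of -0.23.

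Of 20 mRNA export genes 2 rose and none fell on reads, with a median of 0.20. ALYREF, which couples splicing to export, gave 36.2, 51.2 and 25.7 scaled RPM against 128.9, 246.1 and 211.4, with no overlap and a log2 fold change of 2.38 (SE 0.42, limma-voom adjusted p = 0.0169). DDX39A, an RNA helicase of the export machinery, gave 49.1, 72.4 and 51.3 against 107.3, 285.2 and 187.5 and a log2 fold change of 1.63 (SE 0.43, limma-voom adjusted p = 0.0494). With the length trend removed, ALYREF was still called (limma-voom adjusted p = 0.040) and DDX39A was not. Of 20 nuclear envelope and lamina genes, 1 fell, with a median of 0. It was SYNE1, a giant envelope protein that ties the nucleus to actin, at 168.5, 149.2 and 145.1 scaled RPM against 53.9, 19.9 and 21.8, a log2 fold change of -2.39 (SE 0.44, limma-voom adjusted p = 0.0197) that missed the threshold with the length trend removed (adjusted p = 0.0726) and passed it with length and GC trends removed (-1.13, adjusted p = 0.0483). The FPKM fit called 0 genes of any of the 5 lists. It tested 18 of the 20 nuclear envelope and lamina genes, and SYNE1 was not among them.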

How the data were processed

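Per the file headers, the authors deposited FPKM for each library, computed on rising shares of its reads, and the column for the full library was used. Bowtie 0.12.2 and hg38 are named per the submitters' processing notes. The counting tool, annotation and strand setting were not given in the sources used here. For 27483 of 29280 genes above 0 (93.9%), the summed lengths of the GENCODE 29 transcripts turned low values into whole reads, within 0.05 of a read. For 1792 genes, among them AHCTF1 and NUP98, the smallest length that gave whole reads was searched for. For 5 genes no length was found. Whole reads were the rule for accepting a length, so they are no separate check of the recovery. The summed length carries all isoforms, so no level across genes was taken from FPKM.

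FPKM divided by median-ratio factors (from genes at a mean FPKM of 1 or more) were fitted as log2(value + 0.5) with limma 3.58.1 in R 4.3.3, trend option, group only, for genes at a mean FPKM of 0.5 or more, two-sided, with Benjamini-Hochberg adjustment at 0.05. The second fit, limma-voom, used recovered reads of genes with at least 60 reads in all, with factors from genes averaging 20 reads or more. Further versions removed lowess trends (span 0.3) over the longest transcript, alone or followed by GC content. Member and list genes are named with every library's value where called on FPKM or reads or, for members, where groups do not overlap. Members, lists and tests were chosen with earlier results of these data known. Gene symbols were found for 57392 of 58174 identifiers. The FPKM fit, the fit of reads and the fit with the length trend removed were run on simulated reads that held no length or GC trend. The fit with both trends removed and the fits with a block were not checked in this way.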

Additional observations from a re-analysis of the deposited data

How the results depend on the processing

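Control 1, with the fewest reads, limits precision for low genes: NUP37 had 2 reads there (95% interval 0.445 to 13.3 RPM). Leaving libraries out of the fit of reads was added after seeing the data. In the FPKM fit the count of nuclear pore genes called stayed at 0 under other scalings, pseudocounts, filters and array weights, with the replicate number as a block, and with each library left out. It was 2 (TPR and NUP93) with protein-coding genes only, where fewer genes were tested. On reads it was 2, and 3 with library totals (TPR, RANBP2 and AHCTF1, all lower), 2 with the length trend removed and 4 with length and GC trends removed. Leaving out 1 library gave 0 to 9 calls, and 0 to 4 with the length trend removed. The 9 came on reads without sh-JMJD1C 1: TPR, AHCTF1, NUP58, NUP50 and NUP153 lower, and NUP93, NUP85, SEC13 and RAE1 higher. Without both libraries numbered 1 the counts were 3 and 1. The cause was not tested. Where a left-out library leaves 2 in a group, the fits pool the spread over genes.

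The members' median of -0.02 in the FPKM fit came to -0.29 with FPKM as deposited, -0.33 without both libraries numbered 1, -0.44 on reads with library totals (all genes -0.52), 0.27 with the length trend removed and 0.26 with both trends removed; on reads without both libraries numbered 1 it was -0.27. The log2 fold change of JMJD1C was past the threshold at -1.82 with protein-coding genes only, -2.49 on reads, -2.92 with library totals, -2.48 with the block on reads and -1.75 with the length trend removed; with length and GC trends removed it missed it (-1.20, adjusted p = 0.0574). Genes called over the whole table, 34 in the FPKM fit, numbered 79 with FPKM as deposited, 2 with quantile normalization, 84 and 0 with pseudocounts of 0.1 and 1, 0 without a filter, 911 with protein-coding genes only, 118 with array weights, 0 with the block, 0 without both libraries numbered 1, 0 to 692 with 1 library left out (692 without sh-JMJD1C 1), and on reads 656, 1195 with library totals, 4260 with the block, 406 and 802 with trends removed, and 31 (without sh-JMJD1C 2) to 2305 (without sh-JMJD1C 1) with 1 library left out: 39, 1187, 34 and 99 without control 1, control 2, control 3 and sh-JMJD1C 3. Signs turned for NUP35 (0.02 with quantile normalization, 0.12 with length and GC trends removed), NUP58 (0.11) and NUP155 (1.13), the last 2 with both trends removed. NUP155 was under its SE in the FPKM fit (-0.08, SE 0.47) and was called with both trends removed. Turns of other members under their SE in the FPKM fit are not listed. Counting them all, 10 of 31 members changed sign with the length trend removed and 11 of 31 with both trends removed.

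The labels name nothing that same-numbered libraries have in common beyond the number. Their deviations from the group means correlated at 0.009, 0.14 and 0.22, and those of libraries with different numbers at -0.265 to 0.124. Whether same-numbered libraries were paired cannot be told from so few values. With the replicate number as a block, the reads gave 11 nuclear pore genes called, 4260 genes in all, and the FPKM fit 0 and 0. The 11 were TPR, AHCTF1, RANBP2, NUP58, NUP50 and NUP153, all lower, and NUP93, NUP188, NUP85, SEC13 and RAE1, all higher.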
